A study of Schizosaccharomyces pombe with 9 samples.

Results

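The comparison described here is that of fission yeast cells in which the chromatin remodeling ATPase Snf22 was made with an altered ATPase site, the strain snf22-(D996A-E997A), against wild-type (WT) cells. It takes in 6 of the 9 RNA-seq libraries of the study, all 3 of snf22-(D996A-E997A) and all 3 of WT, chosen by their labels, and 6091 of the 6988 genes in the count matrix, those that reached 10 counts in 3 or more libraries. The other 3 libraries are of snf22∆ cells, in which the front part of the coding sequence, with the ATPase site, was removed. They shared in the estimate of the spread and are used below to ask where the ATPase-site mutant differed from the deletion.

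All 3 strains are Schizosaccharomyces pombe, labelled h-, and were harvested in log phase from YES, a rich medium that supplies glucose and phosphate, at 30 °C. The snf22-(D996A-E997A) cells carry snf22 at its own chromosomal place with alanine in place of an aspartate and a glutamate of the DExH motif, the part of the ATPase site that holds the divalent cation, and with kanMX, a drug resistance cassette, inserted behind the gene. The snf22∆ cells carry kanMX in place of that front part and keep the rest of the coding sequence, and the label of the WT cells names no marker, so that the amino acid changes and the cassette behind the gene cannot be told apart. Each genotype is 1 strain, and its 3 libraries are labelled as biological replicates.

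Snf22 is the motor subunit of SWI/SNF, a complex that uses ATP hydrolysis to slide or evict nucleosomes and so alters access to promoters. In yeasts the complex is best known at genes that are switched on and off with the supply of phosphate, sugars, iron or nitrogen and with mating. In budding yeast, the related motor Snf2 is still built into its complex when its ATPase site is mutated. The Snf22 protein itself was not measured in these data.

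The libraries held 20386550, 20796833 and 19542805 counts in the mutant, against 21612099, 20205274 and 15696972 in WT, and 98.7% to 98.9% of the counts of every library lay in protein-coding genes. Within each group 1 library stood apart. In the mutant, replicate 1 differed from the others by a mean chi-square per gene of 33.6 and 34.9, against 5.87 between replicates 2 and 3. In WT, replicate 2 differed from the others by 83.1 and 79.3, against 11.1 between replicates 1 and 3. Values below are normalized counts, that is, counts scaled to a common library size with trimmed mean of M-values factors. They are given in the order of replicates 1, 2 and 3 and are compared for 1 gene at a time, except for medians over sets of sense genes given below. A gene was called higher or lower when its adjusted p in edgeR's quasi-likelihood test was at most 0.05, its change was at least 2-fold, and its mean normalized count was at least 100 in the group where it was higher.

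The snf22 transcript itself was kept in the mutant. It had 1966, 2273 and 2312 normalized counts in snf22-(D996A-E997A) cells, against 2835, 2779 and 2738 in WT cells. All 3 mutant libraries lay below all 3 WT libraries, but the difference was small, a log2 fold change of −0.35 (SE 0.08, adjusted p = 0.00635), and did not pass the 2-fold limit. The snf22∆ libraries had 1471, 1379 and 1222, a count that does not check their label, since part of the coding sequence remains in these cells. Of the 3 coding genes on either side of snf22, 5 were tested and none was called. The one that lies closest to the limit, SPCC1620.13, a phosphoglycerate mutase family gene, had 244, 285 and 275 normalized counts in the mutant and 132, 124 and 156 in WT (log2 fold change 0.97, SE 0.13). It overlaps snf22 over 79.1% of its length on the opposite strand. It passed the limit without WT replicate 3 and without mutant replicate 1.

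Among protein-coding genes, 78 rose in the mutant (1.56% of 4990 tested) and 87 fell (1.74%). The mutant and WT libraries did not overlap in any of these genes, which was also so for 52.9% of all coding genes tested. Most changes were of moderate size, with a median of 2.79-fold among the genes that rose and 2.65-fold among those that fell. Only 19 rose and 23 fell by at least 4-fold, and 9 rose and 13 fell by at least 8-fold. The median log2 fold change over all coding genes was 0.06. In such bulk samples fewer cells with a transcript and less of it per cell cannot be told apart. The number that rose depended on WT replicate 3, the library with the lowest total: without it 133 coding genes were called higher and 94 lower.

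**Figure D1:**
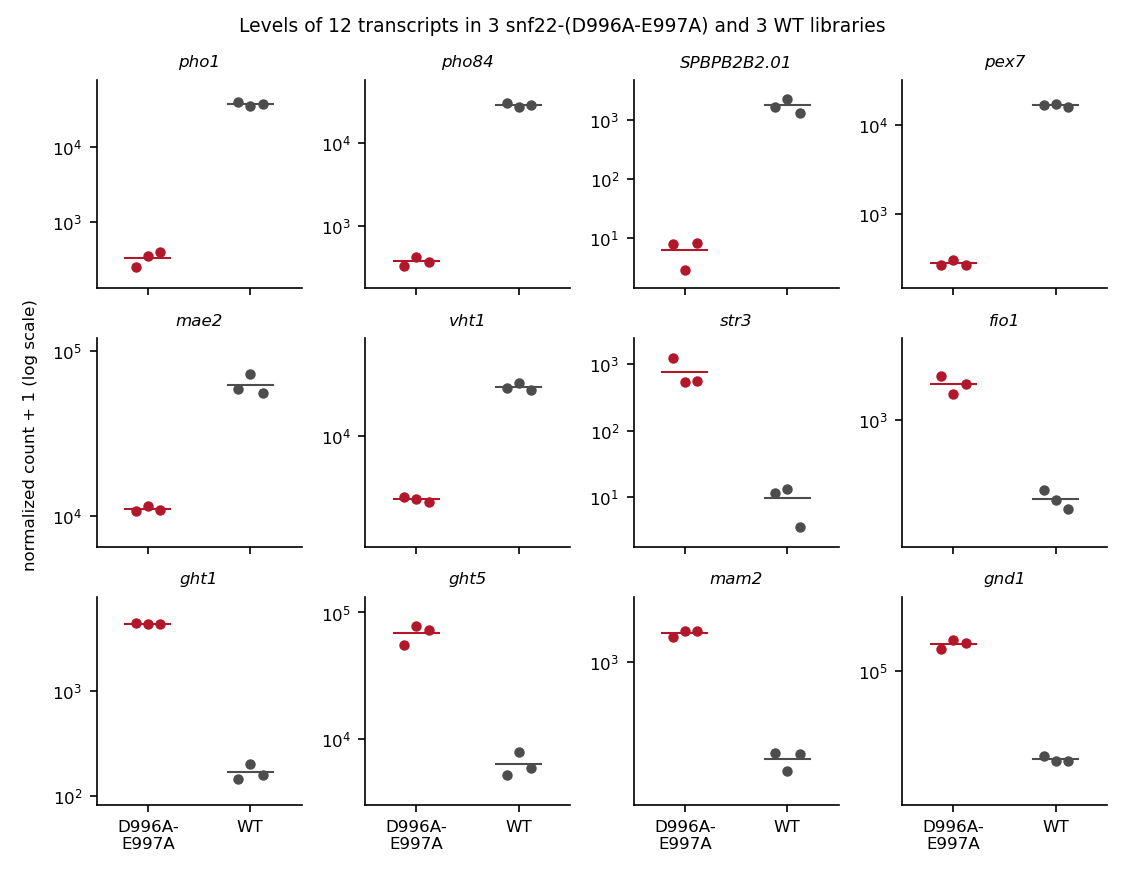
Normalized counts plus 1 on a log scale for 12 transcripts, 1 panel each, in the 3 snf22-(D996A-E997A) libraries (left, red) and the 3 WT libraries (right, gray), with a line at each mean. In the upper row pho1, pho84, SPBPB2B2.01 and pex7 sit far lower in the mutant, mae2 and vht1 fall less far, and the 6 other genes sit higher in the mutant, without overlap of the groups in any panel.

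Phosphate acquisition was the group with the deepest falls. Fission yeast takes up inorganic phosphate through transporters of the plasma membrane and releases it from organic sources outside the cell with secreted phosphatases, and the factor Pho7 drives the main genes. Of the 7 acquisition genes tested, 6 fell and 1 rose, with a median log2 fold change of −3.99. pho1, the extracellular acid phosphatase, had 257, 359.9 and 399.6 normalized counts in the mutant, against 39193, 34696 and 35983 in WT. pho84, the inorganic phosphate transporter, had 327, 424 and 362 in the mutant, against 31212, 27879 and 29242 in WT. The groups lay more than an order of magnitude apart in both genes, with log2 fold changes of −6.76 (SE 0.16, adjusted p = 8.03e-11) for pho1 and −6.31 (SE 0.13, adjusted p = 1.89e-11) for pho84.

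The 2 genes for an extracellular 5′-nucleotidase, an enzyme that frees phosphate from nucleotides, also fell. SPBPB2B2.06c had 5.90, 4.92 and 0 normalized counts in the mutant, against 644, 1183 and 572 in WT, so that the transcript was close to the limit of detection in the mutant (log2 fold change −7.73, SE 0.46). Its relative SPAC1039.02 kept a measurable level of 837, 874 and 866 in the mutant, against 9628, 20288 and 10911 in WT (log2 fold change −3.99, SE 0.25). WT replicate 2 was the highest for both, and leaving it out gave a log2 fold change of −3.59 at the least for SPAC1039.02. tgp1, the glycerophosphodiester transporter, fell less, to 207, 323 and 322 in the mutant, against 797, 602 and 668 in WT (log2 fold change −1.28, SE 0.17, adjusted p = 0.000177).

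The 2 other phosphate transporters of the list moved in opposite directions. pho841 fell to 2097, 1932 and 1909 in the mutant, against 4168, 5091 and 4243 in WT (log2 fold change −1.18, SE 0.09). pho842 rose to 22413, 19443 and 19468 in the mutant, against 8116, 10569 and 8959 in WT (log2 fold change 1.15, SE 0.14, adjusted p = 0.000109). It was the single phosphate transporter that rose. None of the 6 regulators tested was called. pho7 itself had 3814, 3320.3 and 3588 normalized counts in the mutant and 3243, 3770.4 and 3067 in WT, and the groups overlapped (log2 fold change 0.09, SE 0.08). The largest difference among the regulators was at gde1, a glycerophosphodiester phosphodiesterase, with a log2 fold change of −0.45 (SE 0.09).

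Several genes beside these were called as well. Next to pho841, mug14 and abc3 rose, as described below, while other neighbors fell. Next to tgp1, SPBC1271.08c had 673, 543 and 587 normalized counts in the mutant and 1879, 3222 and 2084 in WT, and SPBC1271.07c, an N-acetyltransferase, had 477, 322 and 317 in the mutant and 1812, 2069 and 1997 in WT. Next to SPAC1039.02, SPAC1039.01, an amino acid transporter, fell by 1.65 on the log2 scale (SE 0.12). In the run that holds pho84 and pho1, ecl3, a small protein that extends chronological lifespan, fell to 39.3, 35.4 and 28.7 in the mutant, against 269, 272 and 279 in WT (log2 fold change −2.98, SE 0.17). Its neighbor SPBC8E4.03, an agmatinase, fell by 1.05 (SE 0.12), a call that was lost without WT replicate 2 and without mutant replicate 3. The non-coding RNA prt2, which overlaps pho84 on the same strand, had 125, 112 and 155 normalized counts in the mutant and 491, 626 and 508 in WT and was called lower. The count of prt2 may share reads with pho84. The non-coding RNAs nc-pho1 and nc-tgp1, which overlap pho1 and tgp1 on the same strand, are not described here, and prt2 does not stand for them.

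The single largest fall among coding genes was at SPBPB2B2.01, an amino acid transporter gene in the same chromosome arm. It had 6.88, 1.97 and 7.17 normalized counts in the mutant, against 1658, 2222 and 1297 in WT, a log2 fold change of −8.31 (SE 0.32, adjusted p = 1.13e-08). SPBPB2B2.05, a glutamine amidotransferase family gene, had 7.86, 7.87 and 4.10 in the mutant, against 129, 123 and 123 in WT (log2 fold change −4.21, SE 0.25). The SPBPB2B2 and SPAC1039 genes have similar copies, between which the counting could have divided reads.

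**Figure D2:**
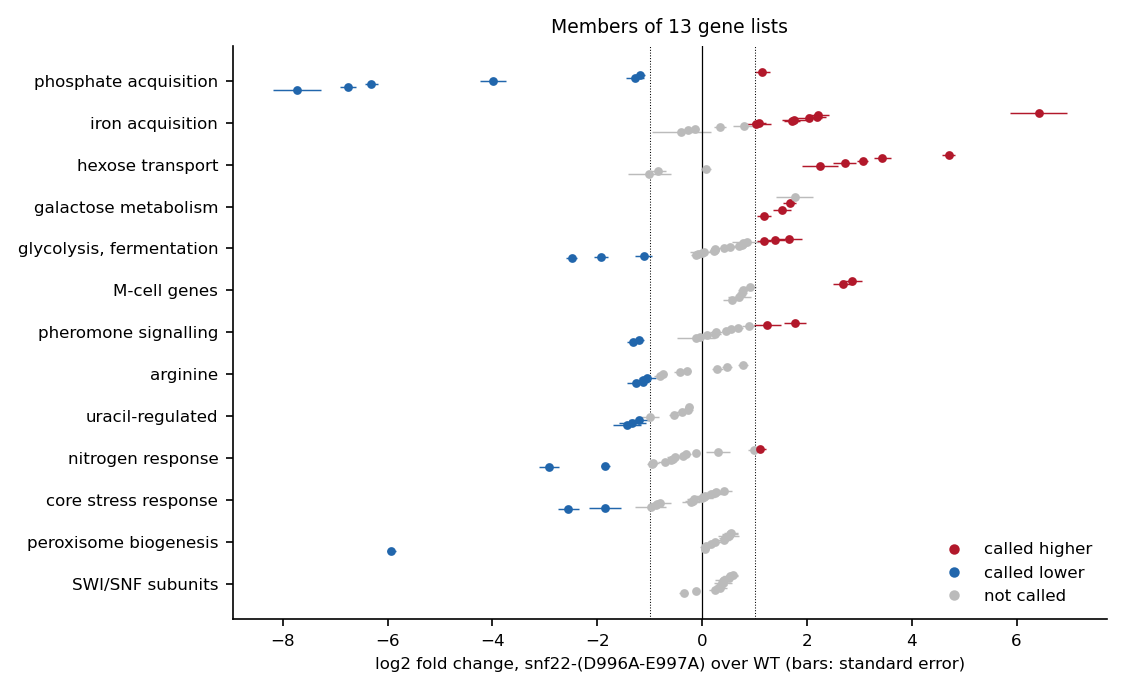
Log2 fold change of snf22-(D996A-E997A) over WT for each tested member of 13 gene lists, with standard errors and with dotted lines at the 2-fold limits. Red points were called higher, blue lower, and gray not called. The phosphate list lies on the left with 6 of 7 members lower, the iron, hexose and galactose lists hold 8, 5 and 3 members on the right, and none of the 12 SWI/SNF subunits was called.

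Iron acquisition moved the other way. In iron-replete cells the repressor Fep1 holds down genes for the reduction of iron at the cell surface, its uptake as free ion, siderophore or heme, and its movement between compartments. Of the 13 genes of this regulon tested, 8 rose and none fell, with a median log2 fold change of 1.09. str3, a heme transporter of the plasma membrane, rose most of them, to 1231, 533 and 559 normalized counts in the mutant, against 10.7, 12.5 and 2.59 in WT. The lowest mutant library was more than an order of magnitude above the highest WT library, and the log2 fold change was 6.42 (SE 0.55, adjusted p = 5.86e-06), the largest rise of any called coding gene. Leaving out each library in turn gave values between 5.92 and 6.71.

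Of the reductive uptake system 3 genes rose. frp1, a ferric-chelate reductase, had 1112, 821 and 792 normalized counts in the mutant and 189, 213 and 183 in WT (log2 fold change 2.22, SE 0.21, adjusted p = 1.66e-05). fio1, the multicopper oxidase that works with the permease, had 1795, 1409.9 and 1606 in the mutant and 397, 347 and 306 in WT (log2 fold change 2.19, SE 0.18). fip1, the iron permease that lies next to fio1, had 5489.8, 3696 and 3898 in the mutant and 1477, 1156 and 1239.8 in WT (log2 fold change 1.75, SE 0.22). In all 3 genes the mutant libraries were above the WT libraries without overlap.

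str1, a siderophore-iron transporter, rose by 2.04 on the log2 scale (SE 0.25), with 4409.7, 3281 and 3479.7 normalized counts in the mutant and 1041, 928 and 747 in WT. abc3, which exports heme from the vacuole, rose by 1.72 (SE 0.15). mmt1, a mitochondrial iron transporter, rose by 1.09 (SE 0.13), and srx1, a sulfiredoxin, by 1.03 (SE 0.27, adjusted p = 0.0103). The last 2 calls rested on single libraries, since mmt1 lost its call without mutant replicate 1 and srx1 without WT replicate 1, WT replicate 3 or mutant replicate 1. For each of the 8 genes the highest of the 6 libraries was mutant replicate 1, the mutant library that stood apart. Without it and WT replicate 2 the rise was 1.91 for str1, 1.53 for abc3, 1.48 for fip1 and 2.11 for frp1, so that these rises were present in the remaining libraries also.

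The rest of the iron genes were not called. frp2, another ferric-chelate reductase, had 247, 161 and 170 normalized counts in the mutant and 91.8, 126 and 117 in WT (log2 fold change 0.79, SE 0.20). The siderophore transporter gene str2 had 1449, 1343 and 1290.0 normalized counts in the mutant and 1288, 1731 and 1886 in WT, and the siderophore synthesis genes sib1 and sib2 had log2 fold changes of −0.13 and 0.34. No regulator of the regulon was called among 5 tested. The repressor gene fep1 had 3175, 3102 and 2956 in the mutant and 3711, 4634 and 3757 in WT (log2 fold change −0.39, SE 0.09), and php4, which represses iron-using genes when iron is scarce, had a log2 fold change of 0.36 (SE 0.11).

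Hexose transporters formed the third group. The ght genes encode sugar:proton symporters of the plasma membrane, several of which are expressed when glucose is scarce. Of the 8 tested, 5 rose and none fell, with a median log2 fold change of 2.48. ght1, a high-affinity glucose symporter, rose to 4498, 4386 and 4339 normalized counts in the mutant, against 145, 203 and 159.5 in WT (log2 fold change 4.70, SE 0.12, adjusted p = 1.68e-10). ght5, the high-affinity glucose and fructose symporter on which growth in low glucose depends, rose to 55550.2, 77844 and 72579 in the mutant, against 5141, 7913 and 5928 in WT (log2 fold change 3.44, SE 0.17). In both the groups were separated by far more than their spread.

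ght4 had 4122, 3812 and 3591 in the mutant and 405, 506 and 468 in WT (log2 fold change 3.06, SE 0.10). ght7 had 144, 107 and 118 in the mutant and 19.5, 20.4 and 15.6 in WT (log2 fold change 2.72, SE 0.22). ght3, a gluconate symporter, had 801, 530.0 and 534 in the mutant and 87.8, 221 and 83.0 in WT. WT replicate 2 was thus the highest WT library for ght3, whose log2 fold change was 2.25 (SE 0.35) with it and 2.84 without it. The other 3 were not called. ght8 had 24485, 31231 and 30457 in the mutant and 26269, 29137 and 26598 in WT, with overlap of the groups. ght2 had a log2 fold change of −0.85 (SE 0.16), and passed the limit as lower only without mutant replicate 1, and ght6 was counted at 36.3 or less in every one of the 6 libraries. The ght genes are similar in sequence, and reads could have been divided between them.

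Of 4 galactose genes 3 rose. Fission yeast carries genes for the entry of galactose into glycolysis, although laboratory strains do not normally grow on it. gal1, gal10 and gal7 lie close together near the right end of chromosome II. In gene order tgd1, which was not called, comes between gal10 and gal7. It overlaps gal10 on the opposite strand over 93.7% of the length of gal10, so that their counts may share reads. gal7, the uridylyltransferase, had 367, 324 and 384 normalized counts in the mutant and 116, 106 and 115 in WT (log2 fold change 1.67, SE 0.12). gal10, the epimerase, had 390.2, 308 and 415 in the mutant and 112, 139 and 137 in WT (log2 fold change 1.52, SE 0.17), and gal1, the galactokinase, rose by 1.19 (SE 0.13). The fourth gene of the list, the melibiase mel1, had a log2 fold change of 1.76 (SE 0.36) but a mean count below 100 and was not called.

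By contrast, none of 9 glucose-repressed genes and their regulators passed all limits. fbp1, the gluconeogenic fructose-1,6-bisphosphatase, had 321, 281 and 261 normalized counts in the mutant and 147, 189.6 and 119 in WT, a log2 fold change of 0.92 (SE 0.17). It passed the limit without WT replicate 2. inv1, the secreted invertase, had a log2 fold change of 0.67 (SE 0.19) and scr1, the repressor that acts in high glucose, one of 0.76 (SE 0.08). rsv1, another repressor of this group, had 61.9, 44.2 and 49.2 in the mutant and 12.7, 28.4 and 13.0 in WT, too few for a call.

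Genes of sugar breakdown were split. Among 20 glycolytic and fermentative genes, 3 rose and 3 fell. mae2, the malic enzyme, fell to 10769, 11568 and 10832 normalized counts in the mutant, against 58564, 72313 and 55268 in WT (log2 fold change −2.49, SE 0.11, adjusted p = 2.22e-08). adh4, an alcohol dehydrogenase, fell to 3557, 2831 and 2618, against 10743, 13072 and 10367 in WT (log2 fold change −1.92, SE 0.13). gpd3, a glyceraldehyde 3-phosphate dehydrogenase, fell by 1.11 (SE 0.16), a call lost without WT replicate 1.

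On the other side, eno102, an enolase gene, rose to 532, 388 and 526 in the mutant, against 103, 219 and 135 in WT (log2 fold change 1.66, SE 0.25). atd1, an aldehyde dehydrogenase, rose by 1.39 (SE 0.19) and pdc201, a pyruvate decarboxylase, by 1.18 (SE 0.14). In the pentose phosphate pathway, 1 of 6 genes was called. gnd1, which makes NADPH by oxidizing phosphogluconate, rose to 126107, 139122 and 134984 in the mutant, against 39885, 37801 and 37970.1 in WT (log2 fold change 1.79, SE 0.11, adjusted p = 4.16e-07). zwf1, which catalyzes the first step of the pathway's oxidative branch, had 14360.3, 11740.5 and 11432 in the mutant and 14538, 20243 and 14602 in WT and was not called (log2 fold change −0.40, SE 0.13). Of 6 glycerol genes only gut2, the glycerol-3-phosphate dehydrogenase that feeds glycerol into sugar metabolism, was called, with 229, 226 and 222 in the mutant and 1302, 2158 and 1179 in WT (log2 fold change −2.78, SE 0.20).

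Of the mating genes of the M cell type, those for an M-factor precursor and for the P-factor receptor rose in the mutant. The h- label means M cells, which secrete M-factor and carry the receptor for the P-factor of the other type. The label could be checked only through genes that the cell type switches on, because mat1-Mc and mat1-Mi, which specify M cells, were counted at 0 in every library. Of 7 M-cell genes, 2 rose and none fell, and the other 5 had log2 fold changes between 0.57 and 0.92, with a median of 0.77 for the list. mfm1, an M-factor precursor, had 295, 280.2 and 302 normalized counts in the mutant and 48.8, 35.2 and 36.3 in WT (log2 fold change 2.85, SE 0.20, adjusted p = 1.58e-06). mam2, the P-factor receptor, had 1429, 1567 and 1573 in the mutant and 259, 198 and 252 in WT (log2 fold change 2.69, SE 0.19, adjusted p = 1.3e-06).

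The other M-factor precursors differed less. mfm2 had 3039.7, 2424 and 2399.7 in the mutant and 1880.0, 1818 and 1579.6 in WT (log2 fold change 0.57, SE 0.17), and mfm3 had a log2 fold change of 0.71 (SE 0.23). The M-factor exporter mam1 had 4105, 4081 and 4044 in the mutant and 2299.7, 2457 and 2411 in WT, without overlap of the groups and below the 2-fold limit. Of 3 P-cell genes, map2, which encodes P-factor, fell to 86.5, 75.7 and 100.4 in the mutant, against 182, 192 and 258 in WT (log2 fold change −1.26, SE 0.18). The other 2, map3 and sxa1, were not called, and the median of the list was −0.14. sxa1 had 15521, 13346 and 13454 raw counts in the mutant and 14722, 16134 and 10504 in WT. his6 overlaps map3 over 99.8% of the length of map3 on the opposite strand, so that their counts may share reads. Genes listed for both cell types were thus counted in these libraries. These counts do not decide the h- label, which was not tested further.

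Among 13 genes of pheromone signaling and its control, 2 rose and 2 fell. map1, a MADS-box factor of mating-type gene expression, rose to 294, 279 and 294 in the mutant, against 77.1, 68.1 and 109 in WT (log2 fold change 1.78, SE 0.21). ste4, an adaptor of the pheromone kinase cascade, rose by 1.25 (SE 0.25), a call lost without WT replicate 2. The genes that fell act in nutrient sensing upstream of mating. gpa2, the G protein subunit of the glucose-sensing cAMP pathway, fell to 1227, 948 and 927 in the mutant, against 2398, 3011 and 2325 in WT (log2 fold change −1.32, SE 0.12), and pac2, a regulator that restrains ste11, fell by 1.20 (SE 0.10). ste11, the central activator of mating genes, had 6399.8, 5012 and 5200.1 in the mutant and 3630.1, 4271 and 3502 in WT (log2 fold change 0.54, SE 0.12) and was not called.

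In a list of 11 genes drawn up for arginine synthesis and breakdown, 4 fell and none rose, with a median log2 fold change of −0.75. arg4, the large subunit of the arginine-specific carbamoyl-phosphate synthase, had 19321, 15104 and 14918 normalized counts in the mutant and 32862, 42568 and 32636 in WT (log2 fold change −1.13, SE 0.13, adjusted p = 5.91e-05). arg12, argininosuccinate synthase, fell by 1.13 (SE 0.12) and arg5, the small subunit of the carbamoyl-phosphate synthase, by 1.04 (SE 0.16). aca1, an acetyltransferase of the proline analog azetidine-carboxylic acid, fell by 1.25 (SE 0.17). Its annotation names no step of arginine metabolism. cyp8 overlaps aca1 over 86.6% of its length on the opposite strand, so that their counts may share reads. These falls lay close to the limit, and arg12 and arg5 lost their calls without WT replicate 2, the highest library for all 4, and arg5 also without mutant replicate 2 or 3. arg3 and arg1, which act in the same pathway, had log2 fold changes of −0.75 and −0.80. car1, the arginase that breaks arginine down, had 1269.7, 1189 and 1179 in the mutant and 738, 745 and 629 in WT (log2 fold change 0.78, SE 0.10).

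In a list of 14 genes of the nitrogen response, 2 fell and 1 rose. isp4, an oligopeptide transporter, fell to 672, 615 and 632 in the mutant, against 6566, 3509 and 4481 in WT (log2 fold change −2.92, SE 0.19). gdh1, the NADP-dependent glutamate dehydrogenase that fixes ammonium, fell to 6475, 7643 and 7856 in the mutant, against 27360.2, 24953 and 26479.7 in WT (log2 fold change −1.84, SE 0.09, adjusted p = 6.99e-08). aat1, an amino acid transporter, rose by 1.10 (SE 0.12), a call lost without WT replicate 1. Outside the list, SPBC23G7.13c, a urea transporter gene, fell to 13.8, 24.6 and 4.10 in the mutant, against 219, 335 and 219 in WT, a log2 fold change of −4.16 (SE 0.42) that was −4.82 without mutant replicate 2.

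All 8 uracil-regulated genes tested had negative log2 fold changes, between −1.43 and −0.25, and 3 of them were called lower. urg2, a uracil phosphoribosyltransferase, had 6032, 4031 and 3847 normalized counts in the mutant and 9934, 16568 and 10989.8 in WT (log2 fold change −1.43, SE 0.27, adjusted p = 0.00163). urg1, a GTP cyclohydrolase, fell by 1.33 (SE 0.26) and uck2, another uracil phosphoribosyltransferase, by 1.20 (SE 0.20). In these genes mutant replicate 1 was the highest mutant library and WT replicate 2 the highest WT library, and without both the log2 fold changes were −1.41, −1.28 and −1.23 for urg2, urg1 and uck2. Among 10 genes of vitamin uptake and synthesis 2 fell: vht1, the biotin transporter, with 5274, 5130.4 and 4985 in the mutant and 16526, 17368 and 16162 in WT (log2 fold change −1.70, SE 0.07, adjusted p = 1.33e-08), and thi9, a thiamine transporter, with a log2 fold change of −1.47 (SE 0.14).

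pex7 stood alone in its group. It encodes peroxin-7, the receptor that carries proteins with a type 2 targeting signal into peroxisomes. It had 266, 301 and 265 normalized counts in the mutant, against 16969.6, 17612 and 16055 in WT, a log2 fold change of −5.93 (SE 0.09) with the smallest adjusted p of the genes named here, 1.72e-12. The other 10 peroxin genes tested had log2 fold changes between 0.05 and 0.55 and none was called.

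Of 10 oxidative stress genes 2 fell and 1 rose, and of 16 genes of the core stress response 2 fell and none rose, beside 1.74% lower and 1.56% higher of all coding genes. ctt1, the catalase, fell to 1349, 1172 and 1117 in the mutant, against 5715, 10151 and 5461 in WT (log2 fold change −2.55, SE 0.20), and obr1, a quinone reductase, fell by 2.74 (SE 0.11), while srx1 rose as given above. ctt1 is also 1 of the 2 core stress genes that fell, and the other, lsd90, had 286, 295 and 335 in the mutant and 749.6, 1806 and 751 in WT, with a log2 fold change of −1.85 (SE 0.30) that was −1.31 without WT replicate 2. Of the lifespan genes related to ecl3, ecl1 fell to 983, 457 and 573 in the mutant, against 1496, 2131 and 1579.6 in WT (log2 fold change −1.37, SE 0.23), and ecl2 was not called (−0.56, SE 0.09).

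A list of 12 genes was drawn up for the kinetochore and centromere, of which 3 fell. It holds abp1, which is annotated as an actin-binding protein of the drebrin family, and abp2, whose annotation names no centromere role. cnp3, the fission yeast CENP-C, had 201, 199 and 218 normalized counts in the mutant and 818, 641 and 962 in WT (log2 fold change −1.97, SE 0.16). Its neighbor abp2, which may bind replication origins, had 499, 618 and 529.7 in the mutant and 3004, 3609 and 2805 in WT (log2 fold change −2.52, SE 0.11). spc24, of the outer kinetochore, had 331, 348 and 306 in the mutant and 382, 737 and 1504 in WT, so that the WT libraries were widely spread. Its log2 fold change was −1.40 (SE 0.38) with all libraries and −0.75, not called, without WT replicate 3. Apart from abp1, at −0.08, the 8 genes not called had log2 fold changes between 0.06 and 0.71. Among 8 genes of cell separation only eng1, the glucanase of the septum, fell, by 1.03 (SE 0.14), a call lost without mutant replicate 2 or 3.

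Genes for the remodelers themselves were not called. The 12 SWI/SNF subunit genes had a median log2 fold change of 0.38, with snf5 at 0.41 (SE 0.10), ssr1 at 0.58 (SE 0.10) and arp42 at 0.52 (SE 0.10). snf21, the motor of the related complex RSC, had 1719, 1523 and 1799 normalized counts in the mutant and 1069.8, 985 and 1288 in WT (log2 fold change 0.59, SE 0.11). Of 7 RSC genes the largest difference was at sfh1, with a log2 fold change of 0.85 (SE 0.12). The 8 other remodeler ATPase genes tested had a median of 0.48, with hrp1 at 0.54 (SE 0.11).

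By annotated product, transporters were called most often among the larger classes. Of 185 transporter genes tested, 15 rose (8.11%) and 19 fell (10.3%), with a median log2 fold change of −0.20. Of all coding genes 1.56% rose and 1.74% fell. Of 227 dehydrogenases, reductases and oxidases 6 rose (2.64%) and 12 fell (5.29%). Of 125 DNA-binding transcription factors 2 rose (1.6%), near the share of all coding genes, and 5 fell (4%). Among those that fell was cbf12, a CBF1 family factor, by 1.46 (SE 0.10). None of 292 ribosomal protein genes was called. Of 24 wtf elements, a family of meiotic drive genes, wtf20 and wtf5 rose, by 1.62 (SE 0.26) and 1.35 (SE 0.13), and the class had a median of 0.70. These elements are near-identical in part, and reads could have been shared between them.

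Further large changes fell outside the lists. mug14, an adducin, rose to 1654, 1035 and 1176 normalized counts in the mutant, against 71.3, 97.6 and 75.2 in WT (log2 fold change 3.99, SE 0.29). alr2, an alanine racemase, rose to 639.8, 651 and 581, against 45.9, 57.9 and 70.0 in WT (log2 fold change 3.44, SE 0.14). SPAC2E1P3.05c, with a fungal cellulose binding domain, fell to 646, 779 and 714, against 5772, 8099 and 6003 in WT (log2 fold change −3.22, SE 0.13). SPAPB24D3.07c, a gene of unknown function, fell to 302, 206 and 272, against 3947, 2847 and 3347 in WT (log2 fold change −3.70, SE 0.15). In plb1, a phospholipase B gene, 166807, 221100.0 and 213056 counts in the mutant stood against 44644, 61452 and 45732 in WT (log2 fold change 1.98, SE 0.14). hri1, a kinase that phosphorylates the translation factor eIF2 alpha, rose by 1.49 (SE 0.11), and nce103, the carbonic anhydrase, fell by 1.66 (SE 0.12).

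Some called genes lay side by side, and the share that would do so by chance was not tested. With coding genes in the order of the reference annotation, 44 of the 164 called genes that could be placed (26.8%) lay in 19 runs of neighbors with no other coding gene between them. There were 14 runs of 2 genes, 4 of 3 and 1 of 4, and 12 of the 19 were on chromosome II. In 10 runs all genes rose and in 7 all fell. The runs that fell include tgp1 with SPBC1271.08c and SPBC1271.07c, cnp3 with abp2, and SPBC8E4.03 with ecl3, pho84 and pho1. In another, urg2 lay beside SPAC1002.16c, a carboxylic acid transporter gene with 174, 94.4 and 153 normalized counts in the mutant and 512, 578 and 501 in WT. A further one joined SPBC1685.17, which fell by 2.13 (SE 0.17), to fhn1, a gene of eisosome assembly, which fell by 1.23 (SE 0.27), a call lost without WT replicate 2. Those that rose include fip1 with fio1, ght4 with frp1, alr2 with aat1, and ght5 with SPCC1235.17 and SPCC1235.18, 2 dubious loci that rose by 3.04 (SE 0.15) and 3.64 (SE 0.14).

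The remaining 2 runs held changes in both directions. In the run abc3, mug14 and pho841, the heme exporter and the adducin rose while the phosphate transporter fell. In the run wtf5, SPCC794.03 and SPCC794.04c, the last 2 are both amino acid transporter genes. SPCC794.03 had 479.6, 386 and 382 normalized counts in the mutant and 188, 176 and 182 in WT, while SPCC794.04c had 96.3, 82.6 and 57.4 in the mutant and 544, 1014 and 481 in WT. Their log2 fold changes were 1.19 (SE 0.13) and −3.11 (SE 0.30). In the run of mug115, which rose by 1.83 (SE 0.11), and SPAC56F8.13, which had 170.0, 151 and 188 normalized counts in the mutant and 47.8, 64.7 and 68.7 in WT, the dubious locus SPAC56F8.13 lies wholly within mug115 on the opposite strand, so that its count may hold reads of mug115.

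**Figure D3:**
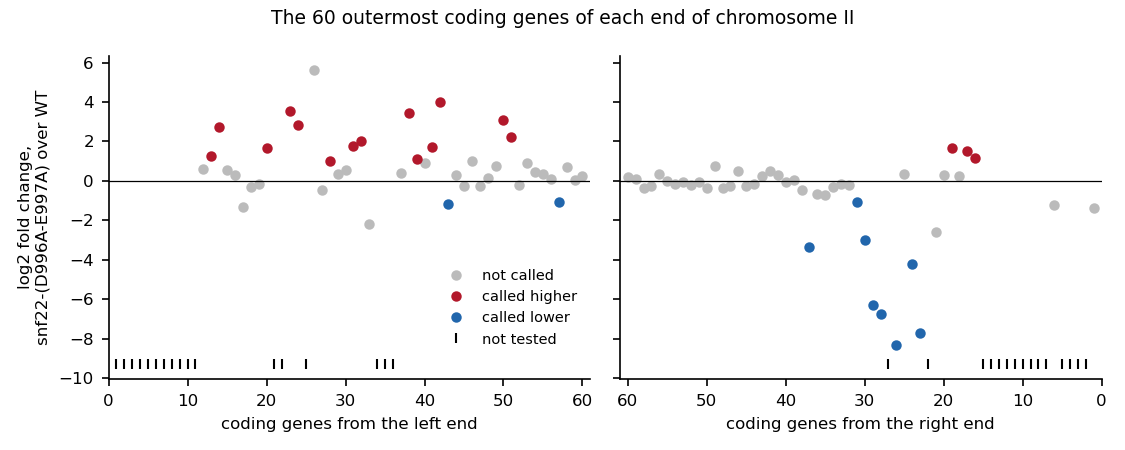
Log2 fold change of snf22-(D996A-E997A) over WT for the 60 outermost coding genes at the left and at the right end of chromosome II, by their order from the end. Red points were called higher, blue lower, gray not called, and ticks mark genes with too few counts to be tested. On the left the called genes are mostly red, with ght7, cmt2, alr2 and mug14 among them, and on the right the red galactose genes sit outside the blue genes around pho1 and pho84.

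The ends of chromosome II held many of these genes. Of the 30 outermost coding genes at each of the 6 chromosome ends, 115 were tested and 17 were called (14.8%), against 3.31% of all coding genes. On chromosome II it was 15 of 31 (48.4%), while on chromosome I none of 26 was called. At the left end of chromosome II, 6 of 16 tested genes rose and none fell. cmt2, an O-methyltransferase, rose to 857, 284 and 483 normalized counts in the mutant, against 58.6, 92.0 and 76.5 in WT, and its neighbor SPBPB21E7.11 to 143, 111 and 124, against 7.81, 12.5 and 13.0 in WT. The called gene nearest to that end, SPBC1348.12, a transcription factor gene beside ght7, rose by 1.26 (SE 0.23), a call lost without mutant replicate 1. At the right end 3 rose, the galactose genes, and 6 fell, SPBPB2B2.06c, SPBPB2B2.05, SPBPB2B2.01, pho1, pho84 and ecl3. On chromosome III 1 gene was called lower at each end, of 29 tested at each.

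More non-coding RNAs fell than rose. Of 1101 tested, 38 rose (3.45%) and 100 fell (9.08%), and the median log2 fold change was −0.32. The groups did not overlap in any of the 38 and in 98 of the 100, and they did not overlap in 56.7% of all non-coding RNAs tested. The falls were mainly in RNAs annotated as antisense, of which 83 of 631 fell (13.2%) and 15 rose (2.38%), whereas of 470 other non-coding RNAs 17 fell and 23 rose. The WT libraries differed among themselves in these RNAs. Summed over the 83 antisense RNAs, the normalized counts were 8271, 7957 and 7433 in the mutant, against 19719, 30267 and 31149 in WT. For 59 of the 100 non-coding RNAs that fell, WT replicate 3 was the highest WT library, and without it 77 were called lower. The part of that library in the result was otherwise not tested.

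**Figure D4:**
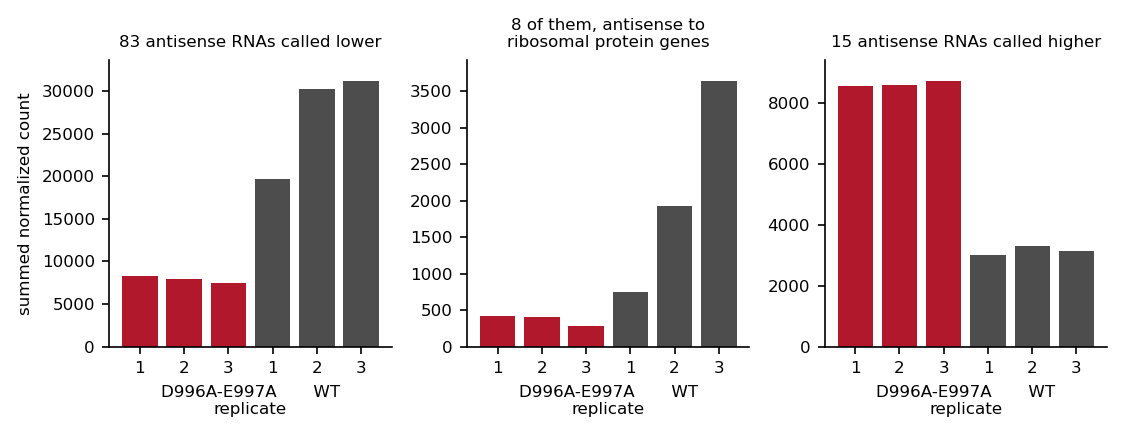
Summed normalized counts in each snf22-(D996A-E997A) library (red) and each WT library (gray) of the 83 antisense RNAs called lower, of the 8 among them that are antisense to ribosomal protein genes, and of the 15 called higher. The mutant bars stand at about 8271, 7957 and 7433 in the first panel and at 414, 400.2 and 289 in the second, while the WT bars of the first 2 panels differ among themselves and are highest in replicate 3.

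The clearest case of that spread was a set of 8 antisense RNAs of ribosomal protein genes. Their summed counts were 414, 400.2 and 289 in the mutant, against 754, 1928 and 3635 in WT. rpl2001-antisense-1 had 27.5, 21.6 and 17.4 in the mutant and 71.3, 232 and 479.8 in WT, and its log2 fold change was −3.53 (SE 0.69) with all libraries and −2.73 without WT replicate 3. cpc2-antisense-1 had 24.6, 28.5 and 5.12 in the mutant and 58.6, 144 and 530.4 in WT, with a log2 fold change of −3.62 (SE 0.90) that was −2.34 without that library. The same library moved rpl1801-antisense-1 to −2.75 and SPAP8A3.07c-antisense-1 to −3.22. For 67 of the 83 antisense RNAs the gene on the other strand was named and tested. Of these 67 genes 1 rose and 3 fell, with a median log2 fold change of −0.09.

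Other antisense RNAs fell with tight groups. end4-antisense-1, which lies opposite end4, an endocytic gene, over 98.6% of its own length, had 0.983, 7.87 and 9.22 normalized counts in the mutant, against 466, 507 and 486 in WT (log2 fold change −6.32, SE 0.39, adjusted p = 5.39e-07). epe1-antisense-1, opposite the gene for a factor that limits heterochromatin, had 14.7, 12.8 and 11.3 in the mutant, against 162, 181 and 202 in WT (log2 fold change −3.79, SE 0.26). Among RNAs annotated as intergenic, SPNCRNA.1390 rose by 2.56 (SE 0.12), SPNCRNA.989 by 1.89 (SE 0.14) and SPNCRNA.511, which overlaps mpg1 over 4.43% of its length on the same strand, by 1.78 (SE 0.14). SPNCRNA.1318, which overlaps ght4 on the opposite strand, had 551, 514 and 532 in the mutant and 97.6, 119 and 86.9 in WT (log2 fold change 2.39, SE 0.15), a rise in the same direction as that of ght4. The library kit keeps strand, but the setting with which reads were counted is not given in the sources used here.

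The mutant was then set directly against snf22∆. Among coding genes 41 were higher in snf22-(D996A-E997A) than in snf22∆ (0.822%) and 36 were lower (0.721%). Both mutants were compared above and below with the same 3 WT libraries, so that likeness of the fold changes over WT is no independent evidence. Of the 78 genes that rose in the ATPase-site mutant against WT, 55 were not called different from snf22∆, 15 were higher and 8 lower than in snf22∆. Another 26 genes were higher and 20 lower than in snf22∆ without being called against WT. Of the 87 that fell, 79 were not called different from snf22∆, 8 were lower than in it and none was higher. Some of the 79 could not be called, because they lay below the minimum mean count in both mutants. Among these were ecl3, with a log2 difference of −1.17 (SE 0.18), and the dubious locus SPAC9G1.14, with −3.37 (SE 0.34). Without that minimum, 47 coding genes were higher than in snf22∆ and 59 lower. The 79 are thus not all shown to be alike in both mutants. For pex7 the difference was −0.02 (SE 0.08) on the log2 scale, a narrow interval around no change, and for obr1 it was −0.07 (SE 0.10).

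**Figure D5:**
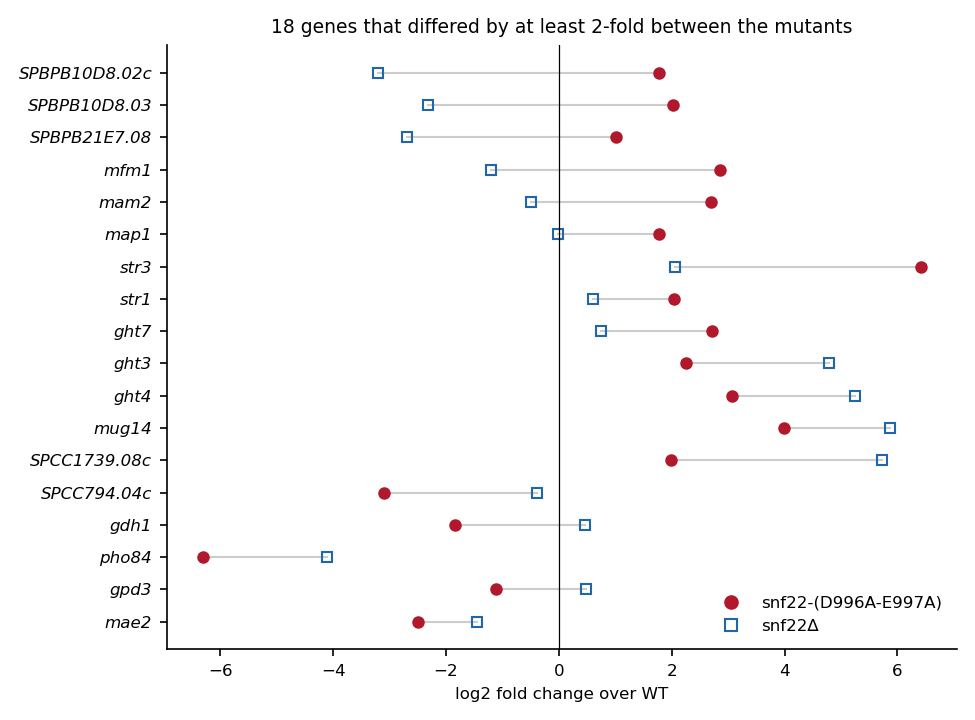
Log2 fold change over WT of snf22-(D996A-E997A) (filled red circles) and of snf22∆ (open blue squares) for 18 coding genes that differed by at least 2-fold between the mutants. From the top, 3 subtelomeric genes, mfm1 and mam2 lie right of zero in the ATPase-site mutant and left of it in snf22∆, ght3, ght4 and mug14 lie further right in snf22∆, and pho84 and mae2 lie further left in the ATPase-site mutant.

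The mating and iron genes were among those that were higher in the ATPase-site mutant. mfm1 averaged 292 normalized counts in it and 17.3 in snf22∆, a log2 difference of 4.06 (SE 0.22, adjusted p = 3.19e-07), and mam2 averaged 1523 in it and 166 in snf22∆ (3.19, SE 0.19). Of the 7 M-cell genes 5 were higher than in snf22∆, and so were 8 of the 13 pheromone signaling genes, among them ste11 by 1.81 (SE 0.12), spk1, the kinase at the end of the pheromone cascade, whose gene is overlapped by hem4 on the other strand, by 1.90 (SE 0.12) and mei2, an inducer of meiosis, by 1.75 (SE 0.10). Of the 13 iron genes 4 were higher: str3 by 4.36 (SE 0.43), str1 by 1.43 (SE 0.25), srx1 by 1.30 (SE 0.27) and frp1 by 1.25 (SE 0.20). None of the iron genes was lower.

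Genes near the left end of chromosome II were also higher in the ATPase-site mutant than in snf22∆. SPBPB10D8.02c, an arylsulfatase gene, had 323, 303 and 387 normalized counts in the ATPase-site mutant, and averaged 10.7 in snf22∆, a log2 difference of 4.98 (SE 0.33, adjusted p = 1.49e-06). Its neighbor SPBPB10D8.03, a transporter pseudogene, differed by 4.35 (SE 0.30) and SPBPB21E7.08, another pseudogene, by 3.70 (SE 0.11). In WT the first had 76.1, 121 and 99.9, so that it lay between the mutants. The call of SPBPB21E7.08 against WT, a rise of 1.02 (SE 0.10), was lost with the size factors of DESeq2 and without WT replicate 2 or mutant replicate 1.

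Several sugar genes were lower in the ATPase-site mutant than in snf22∆. ght3 differed by −2.54 (SE 0.30), ght4 by −2.19 (SE 0.09) and gal10 by −1.46 (SE 0.15), and mug14 by −1.89 (SE 0.23). All 4 were above WT in both mutants. SPCC1739.08c, a short chain dehydrogenase gene overlapped in part by cti1 on the other strand, had 137, 121 and 130.1 in the ATPase-site mutant and averaged 1712 in snf22∆ (log2 difference −3.73, SE 0.17), and 23.4, 32.9 and 42.8 in WT. gcd1, a glucose dehydrogenase, averaged 299 normalized counts in the ATPase-site mutant and 7829 in snf22∆ (log2 difference −4.71, SE 0.16), while its value in the ATPase-site mutant was not called different from WT. ght1 and ght5 differed by −0.43 (SE 0.09) and −0.59 (SE 0.15), less than 2-fold. Of the genes that fell, pho84 was lower still in the ATPase-site mutant, by 2.21 on the log2 scale (SE 0.11, adjusted p = 1.16e-07), and pho1 by 1.00 (SE 0.13), just short of the 2-fold limit. gdh1 had 6475, 7643 and 7856 in the ATPase-site mutant and averaged 36318 in snf22∆ (log2 difference −2.31, SE 0.09), and mae2 differed by −1.04 (SE 0.10).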

How the data were processed

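Poly(A)+ RNA libraries (strand-keeping kit, paired-end reads) were processed by the authors, who used HISAT2 2.1.0 for mapping (build ASM294v2) and HTSeq 0.10.0 for counts over exons. The deposited table holds these raw counts per gene. Other deposited tables hold the authors' DESeq2 fold changes, p-values and mean counts, and these values were not used. Of 6989 lines, 1 repeats a gene ID. Gene names and product descriptions came from the deposited DESeq2 table for snf22-(D996A-E997A). Chromosome and gene order came from RefSeq ASM294v3 (6836 IDs matched by locus tag, 12 by synonym), whose build differs, so no coordinates or sequences are given. Genes with at least 10 counts in 3 of 9 libraries were fitted in edgeR 4.0.16 (R 4.3.3; TMM, group only, all 9 libraries, two-sided quasi-likelihood F test, Benjamini-Hochberg over 6091 genes), after tests on simulated data. Fold changes and SE values come from that fit. DESeq2 1.42.0 was an alternative. The p-values set the difference between groups against the spread between these libraries, not between strains. Library totals also limit precision where counts are low.

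The members and lists were chosen with earlier results of these data known. Genes named are snf22 and its neighbors, the 20 largest rises and falls among called coding genes without overlap, list and class members, genes in runs, and the largest non-coding changes.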

Additional observations from a re-analysis of the deposited data

Results flagged for a closer look

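The genes below were called against WT in snf22-(D996A-E997A), had a log2 fold change of the other sign in snf22∆, and were called different between the mutants by edgeR's quasi-likelihood test. Each value is the log2 difference of snf22-(D996A-E997A) over snf22∆. Among mating genes it was 4.06 for mfm1, 3.19 for mam2, 1.79 for map1 and 1.25 for ste4. In map1 and ste4 the snf22∆ level was close to that of WT (log2 fold changes of −0.01 and −0.00), so that the change of sign rests on very little.

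Among genes near the left end of chromosome II it was 4.98 for SPBPB10D8.02c, 4.35 for SPBPB10D8.03 and 3.70 for SPBPB21E7.08. For srx1, the sulfiredoxin gene, it was 1.30. Genes that fell in the ATPase-site mutant and were lower than in snf22∆ were gdh1 (−2.31), SPAC2H10.01, a transcription factor gene (−1.68), gpd3 (−1.59) and meu7, an alpha-amylase homolog (−1.54). The log2 fold change of snf22∆ over WT was only 0.13 for meu7 and −0.26 for srx1, so that their change of sign also rests on little.

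Among non-coding RNAs it was 1.89 for cdc23-antisense-1, 1.66 for rec11-antisense-1, 1.48 for SPNCRNA.993, 1.41 for ams2-antisense-1 and −1.81 for osh3-antisense-1. Their log2 fold changes of snf22∆ over WT lay between −0.20 and 0.14, so that the change of sign rests on little in each. cdc23-antisense-1 had 986, 968 and 1027 normalized counts in the ATPase-site mutant and 286, 344 and 272 in WT.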

How the results depend on the processing

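With the size factors of DESeq2 71 coding genes rose and 90 fell, and DESeq2 itself gave 71 and 90. Without the minimum mean count, 62 non-coding RNAs rose and 271 fell against WT, and 59 coding genes were lower than in snf22∆. Leaving out each library in turn gave 74 to 133 coding genes higher, the 133 without WT replicate 3, and 77 to 99 lower, 37 to 46 non-coding RNAs higher and 77 to 115 lower. Against snf22∆ it gave 37 to 48 coding genes higher and 35 to 38 lower. Without WT replicate 2 and mutant replicate 1, a setting chosen after the distances between libraries were seen, 72 coding genes rose and 84 fell.

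Same-numbered libraries did not deviate together (correlations of −0.24, 0.05 and 0.16 between the mutant and WT). Between mutant and WT libraries of different replicate number the correlations ran from −0.38 to 0.32. The highest was that of mutant replicate 1 with WT replicate 2, the libraries that stood apart. The labels do not say whether the replicate number pairs the samples, and these correlations cannot decide it. With a block for that number, 80 coding genes rose and 87 fell, 38 non-coding RNAs rose and 98 fell, and 41 coding genes were higher and 37 lower than in snf22∆. Of 146 genes followed under every alternative none changed sign, and of the 111 called 98 kept the call under each. Over all coding genes, 1651 with positive and 1139 with negative changes had an unadjusted p under 0.05, far more than passed the 2-fold limit. Low counts limit SPBPB2B2.06c, SPBPB2B2.01 and end4-antisense-1, whose mutant libraries hold few reads.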
